A study of Mus musculus with 8 samples.

Results

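The PGC1 coactivators and the factors through which they act on mitochondria were followed in gonadal white fat of Rap1-/- and wild-type (WT) mice. The group holds 10 genes, namely Ppargc1a, Ppargc1b, Pprc1, Esrra, Esrrg, Nrf1, Gabpa, Tfam, Tfb1m and Tfb2m. A probe was taken as a member when its RefSeq transcript belonged to one of these genes, which gave 17 of the 55668 probes with a value on every array, and all 10 genes of 19749 with a symbol were covered. Of the 17 probes, 15 were called well above background on 4 or more of the 8 arrays, counted over both genotypes, and were tested. The other 2 were both probes of Esrrg.

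Total RNA from the fat depot was hybridised to one-colour Agilent arrays of 60-mer probes, with 4 arrays from Rap1-/- mice and 4 from WT mice. All mice were 10 weeks old and on a C57BL6/129SV (90%:10%) background, and the study describes them as females sampled before obesity sets in. Terf2ip encodes RAP1, a protein of the shelterin complex that caps telomeres. The Rap1-/- allele is a constitutive whole-body deletion, made with an EIIa promoter Cre that acts in early embryos and was later bred out of the colony, so the deletion is not limited to adipocytes. The labels number the samples 1 to 4 within each genotype and do not say whether each came from 1 mouse, so the p-values below measure the spread between these samples.

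PGC1α, PGC1β and PRC, encoded by Ppargc1a, Ppargc1b and Pprc1, are coactivators that bind no DNA themselves. They are recruited by nuclear receptors such as ERRα and ERRγ (Esrra and Esrrg) and by NRF1 and the ETS factor GABPα (Nrf1 and Gabpa), which switch on nuclear genes for the respiratory chain and for the mitochondrial transcription machinery. TFAM, TFB1M and TFB2M carry the programme into the organelle, where TFAM packages mitochondrial DNA, TFB2M opens its promoters for transcription and TFB1M methylates ribosomal RNA. In fat, the programme is best known from brown and beige adipocytes, which are rich in mitochondria.

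The arrays were alike in detection and differed in brightness. The share of spots well above background was 59.7% to 65.2%, 0 spots were saturated, and 2 arrays of 1 genotype were no more alike over all probes (r = 0.977 to 0.991) than 2 arrays of different genotypes (r = 0.977 to 0.992). The 75th percentile of intensity averaged 447 ± 44 in Rap1-/- and 383 ± 59 in WT (SD, 4 arrays per genotype). Relative to it, the E1A spike-in controls read 2.89 to 3.07 log2 units in Rap1-/- and 2.97 to 3.57 in WT. The precision of the values is limited by the number of arrays. The deleted gene matched its labels on 1 probe (A_52_P381806), which averaged -7.43 in Rap1-/- and 0.26 in WT on the log2 scale and was well above background on 0 of 4 and 4 of 4 arrays. The other Terf2ip probe (A_55_P2094079) averaged 0.97 in Rap1-/- and -1.41 in WT. These were the 2 probes of 33983 that passed the test between genotypes (limma, Benjamini-Hochberg adjusted p under 0.05 over all probes), which is 0.00589%. The 11 white adipocyte markers and the 10 mesothelium markers were well above background on all 8 arrays. Of 9 ovary markers, 5 were so on all 8 arrays and 4 on none.

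None of the 15 tested probes of the biogenesis factors passed the test (limma adjusted p between 0.897 and 0.995). At an unadjusted p under 0.05 the count was also 0 of 15, beside 4.83% of all probes. The 4 Rap1-/- arrays and the 4 WT arrays overlapped on all 15 probes, whereas they were apart on 3.16% of all probes. The mean was lower in Rap1-/- on 8 of 15 probes and higher on 7, with a median difference of -0.01 log2 units. Over all probes, 59.6% had the lower mean in Rap1-/- and the median difference was -0.04. The differences ran between -0.31 and 0.24 log2 units, and the half-width of their 95% intervals was 0.20 to 0.47. All 15 intervals lay above -1 log2 unit, and 11 lay within -0.5 to 0.5. A value here is the log2 of the processed signal minus the array's 75th percentile. Such values place arrays against each other for 1 probe and do not rank probes.

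Averaged over the 9 tested genes, with 1 probe per gene and each gene centred on its own mean, the arrays read -0.13, -0.01, 0 and -0.03 log2 units in Rap1-/-, against 0.07, 0.02, 0.03 and 0.04 in WT. The genotypes did not overlap in this average, although they did on each probe, and its difference was -0.09 log2 units. They were barely apart, with the highest Rap1-/- array at 0.0006 and the lowest WT array at 0.02. The lowest genes were Ppargc1a at -0.31, Ppargc1b at -0.29 and Esrra at -0.18. The second Ppargc1a probe, at 0.24, was not part of the average. Whether the arrays stay apart under another scaling, or how often other genes would be apart, was not computed. The average is given as a description with no test, because the genes were chosen with results known. The median difference of the 9 genes changed sign with the scaling. It was -0.01 as reported here, 0.06 when each array was scaled to its median and 0.22 with E1A spike-in scaling, and it was -0.07 to 0.02 when 1 array was left out.

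**Figure D1:**
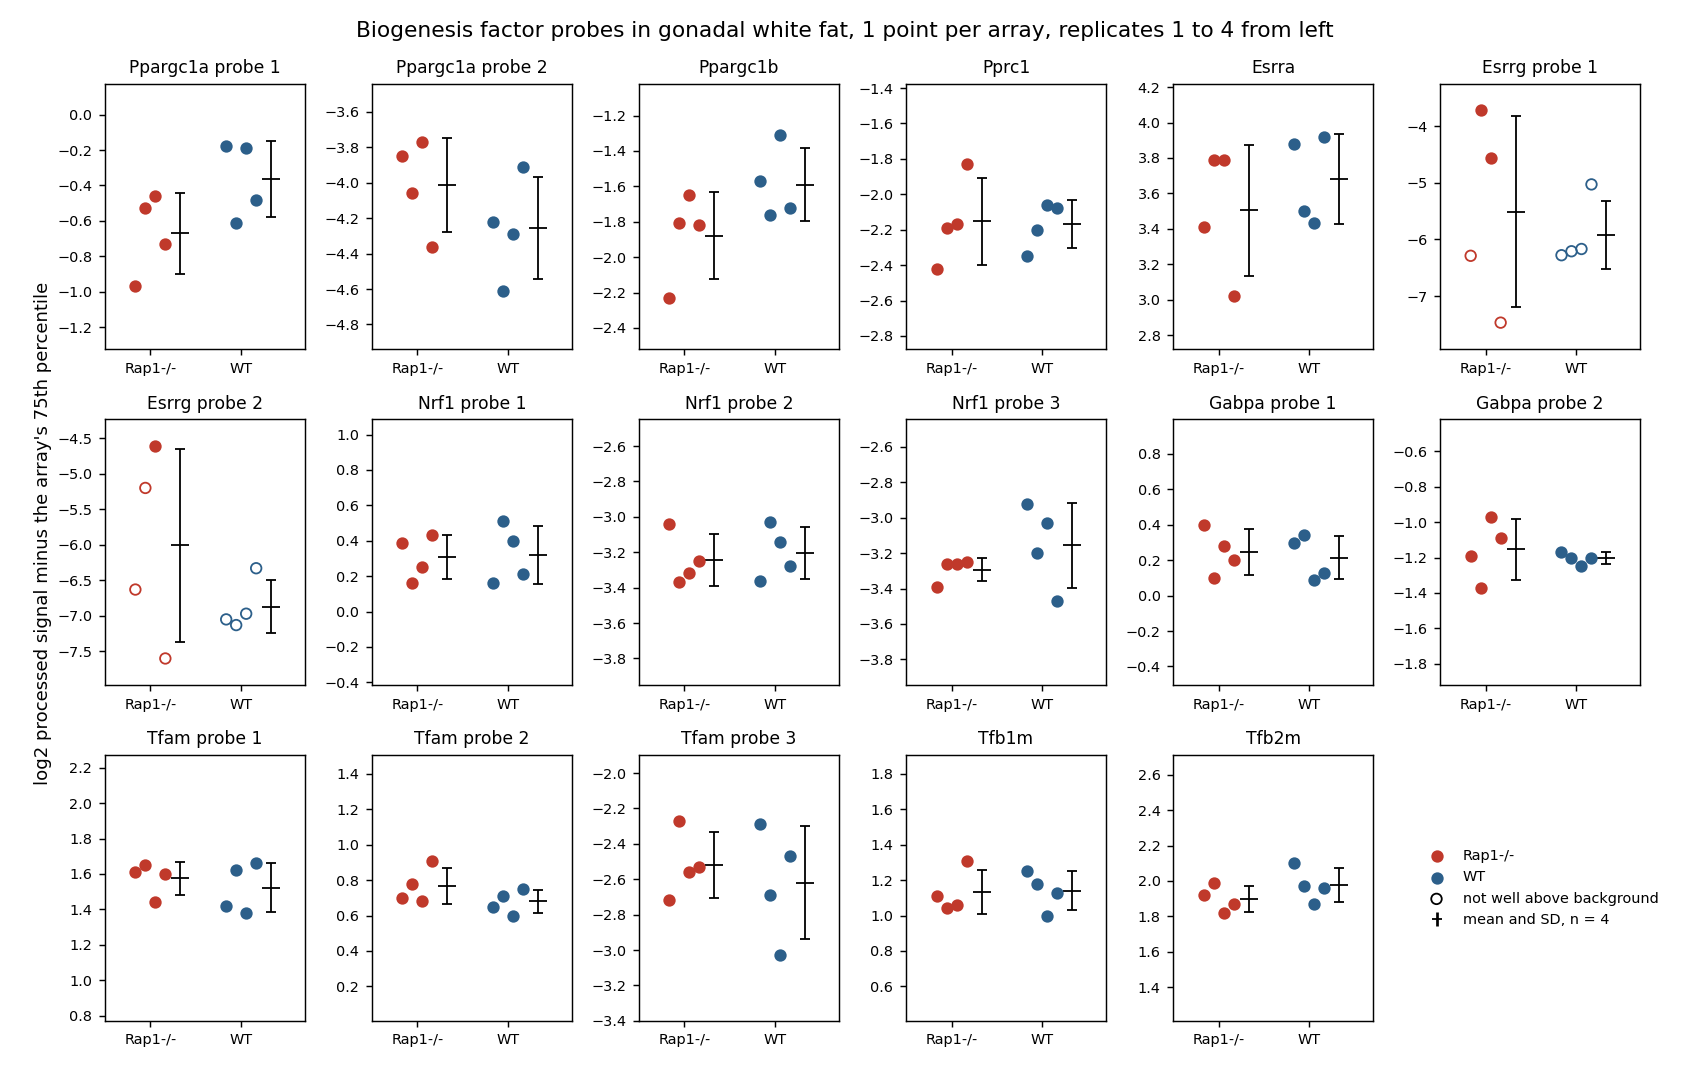
Log2 processed signal minus the array's 75th percentile (y axis, range set per panel) of the 17 probes on the 4 Rap1-/- and 4 WT arrays (x axis), replicates 1 to 4 from left, with the mean and SD (n = 4). Open points were not well above background; the genotypes overlap in every panel, and both Esrrg probes are open on all 4 WT arrays.

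Ppargc1a encodes PGC1α, the coactivator induced by cold and exercise in brown fat and muscle. Its first probe (A_51_P279038) read -0.97, -0.53, -0.46 and -0.73 in Rap1-/-, against -0.18, -0.61, -0.19 and -0.48 in WT. All 4 Rap1-/- arrays lay below the WT mean, but 2 of them lay above the lowest WT array, so the groups overlapped. The means were -0.67 ± 0.23 in Rap1-/- and -0.36 ± 0.21 in WT (SD, 4 arrays per genotype). The difference was -0.31 ± 0.15 log2 units (SE, 95% interval -0.65 to 0.04, limma adjusted p = 0.897, two-sided exact permutation p = 0.143), a level 1.24-fold lower. Expressed as a ratio of Rap1-/- to WT, the interval ran between 0.637 and 1.03. The size of the difference leaned on the scaling of the arrays. It was -0.29 after quantile normalisation and -0.07 when each array was scaled to its E1A spike-in controls.

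The second Ppargc1a probe (A_55_P2011702) pointed the other way. It read -3.85, -4.06, -3.77 and -4.36 in Rap1-/-, against -4.22, -4.61, -4.29 and -3.91 in WT. Here 3 of 4 Rap1-/- arrays were above the WT mean, and replicate 4 of Rap1-/- was below 3 of the 4 WT arrays, so the groups overlapped here too. The difference was 0.24 ± 0.18 log2 units (SE, 95% interval -0.17 to 0.66, limma adjusted p = 0.899). Both probes are annotated to the same RefSeq transcript, and both were well above background on all 8 arrays. The second probe was nevertheless dim, at 15.4 to 34.4 intensity units, against 254 to 331 for the first. On replicates 2 and 3 of WT it read -4.61 and -4.29, where the dimmest signals that counted as well above background were -4.89 and -4.68. Its values are therefore less certain than those of the first probe.

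Because a shift common to an array cancels between 2 probes of it, the gap between the Ppargc1a probes was compared between genotypes. The first probe exceeded the second by 2.88, 3.53, 3.32 and 3.64 log2 units in Rap1-/-, against 4.04, 4.00, 4.10 and 3.43 in WT. The gap was thus narrower on the Rap1-/- arrays than on 3 of the 4 WT arrays, with means of 3.34 ± 0.33 in Rap1-/- and 3.89 ± 0.31 in WT (SD, 4 arrays per genotype). The difference between genotypes was -0.55 ± 0.20 log2 units (SE), with an unadjusted p of 0.0273 and an adjusted p of 0.815 over 5483 such pairs of probes (limma). Of those pairs, 6% had an unadjusted p under 0.05, and 0.0182% passed after adjustment, which was 1 pair, that of Terf2ip. Within slide 1 the difference of the gap was -0.81, and within slide 2 it was -0.29. It also depended on the background correction, and was -0.17 (unadjusted p = 0.187) with normexp and the 75th percentile, -0.31 (unadjusted p = 0.0510) with normexp and quantile normalisation, and -0.30 (unadjusted p = 0.0535) in the values deposited by the authors (limma). Normexp was run here with an added offset of 50 intensity units, more than the processed signal of the second probe on any array (15.4 to 34.4). The part of the offset in these smaller differences was not tested. The remaining 7 pairs, within Nrf1, Gabpa and Tfam, differed between genotypes by -0.04 to 0.12 log2 units and had unadjusted p-values of 0.449 or more (limma).

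The promoter of Ppargc1a is shown because the study reports that RAP1 acts at this gene away from telomeres. By chromatin immunoprecipitation in liver, it found RAP1 at a promoter fragment and at a site within the gene, but not at another fragment of the same promoter region. Reporter activity of the promoter piece that holds the bound fragment was lower in its Rap1-/- embryonic fibroblasts. No difference was seen there for another promoter piece, for the site within the gene or for a site downstream of it. By qPCR, it found Ppargc1a lower by about 50% in liver and white fat of Rap1-/- females of this age. On the arrays of white fat, the interval of the ratio of Rap1-/- to WT was 0.637 to 1.03 for the first Ppargc1a probe. For the dimmer second probe it was 0.890 to 1.57. Under the 75th percentile scaling, neither interval reached down to a reduction of the size found by qPCR. The reason for this difference in size was not tested. The position of the study's fragments was not compared with the window shown here. The 250 bases before the start site in the RefSeq promoter table (GRCm38.p6, chr5:51567726-51567975, minus strand, in the direction of the gene) were searched on both strands for the telomere repeat TTAGGG, the ERR half-site TNAAGGTCA, the GABP site CCGGAAG and the NRF1 site GCGCANGCG, together with the 50 bases after it.
Ppargc1a: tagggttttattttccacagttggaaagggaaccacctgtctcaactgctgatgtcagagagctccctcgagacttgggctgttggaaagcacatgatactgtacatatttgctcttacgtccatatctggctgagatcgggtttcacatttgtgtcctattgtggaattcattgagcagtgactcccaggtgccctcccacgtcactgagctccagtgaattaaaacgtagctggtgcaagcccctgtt
None of the 4 motifs was found in this window of 300 bases, which says only that these letters are not in it. The RefSeq gene reaches further upstream on chromosome 5, to position 52115853, and no start there was searched. For comparison, the telomere repeat was present in 10.6% of the 32851 RefSeq promoter windows of the same length, the GABP site in 8.86%, the NRF1 site in 6.25% and the ERR half-site in 1.28%.

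Ppargc1b encodes PGC1β, which acts with ERRα on the basal oxidative programme. Its single probe (A_55_P1993168) read -2.23, -1.81, -1.65 and -1.82 in Rap1-/-, against -1.57, -1.76, -1.31 and -1.72 in WT. All 4 Rap1-/- arrays were again below the WT mean, and the groups overlapped through replicate 3 of Rap1-/-, which lay above 2 WT arrays. The means were -1.88 ± 0.25 in Rap1-/- and -1.59 ± 0.21 in WT (SD, 4 arrays per genotype). The difference of -0.29 ± 0.15 log2 units (SE, 95% interval -0.64 to 0.06) did not pass (limma adjusted p = 0.897, two-sided exact permutation p = 0.143). It was -0.35 within slide 1, -0.23 within slide 2, -0.18 in the values deposited by the authors and -0.06 under spike-in scaling. Without replicate 1 of Rap1-/-, the lowest array for both this probe and the first Ppargc1a probe, the differences were -0.17 for Ppargc1b and -0.21 for Ppargc1a.

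Pprc1 encodes PRC, the member of the family that answers growth signals. It read -2.42, -2.19, -2.17 and -1.83 in Rap1-/-, against -2.35, -2.20, -2.06 and -2.08 in WT. The Rap1-/- arrays spanned the WT arrays on both sides, and the difference was 0.02 ± 0.14 log2 units (SE, 95% interval -0.30 to 0.34, limma adjusted p = 0.994).

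The genes whose pattern over the 8 arrays was most like that of the coactivators were also listed, among all other probes with a symbol (19496 for Ppargc1a and 19497 for Ppargc1b). For the first Ppargc1a probe these were Mif (r = 0.978), Pcdh7 (r = 0.970), Dhrs11 (r = 0.957), Sec14l4 (r = 0.954) and Tkt (r = 0.954). For Ppargc1b they were Khsrp (r = 0.990), Atad2 (r = 0.973), Zfp457 (r = 0.970), Synrg (r = 0.965) and Gal (r = 0.964). Each r is the highest of a long list over 8 arrays and is given as a description. Tkt encodes transketolase of the pentose phosphate pathway, and its mean was 8.25 ± 0.53 in Rap1-/- and 8.93 ± 0.34 in WT (SD, 4 arrays per genotype). None of the 10 genes passed between genotypes (limma adjusted p = 0.897 to 0.908).

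Esrra encodes ERRα, the orphan nuclear receptor through which PGC1α drives much of the respiratory chain. Its probe (A_55_P1954306) read 3.41, 3.79, 3.79 and 3.02 in Rap1-/-, against 3.88, 3.50, 3.43 and 3.92 in WT. Replicate 4 of Rap1-/- was the lowest array and replicates 2 and 3 were among the higher ones, so that the genotypes interleaved. The difference was -0.18 ± 0.20 log2 units (SE, 95% interval -0.65 to 0.29, limma adjusted p = 0.922), and it was 0.05 under spike-in scaling.

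Esrrg encodes ERRγ, a receptor of heart, oxidative muscle and brown fat. Its first probe (A_65_P19089) read -6.29, -3.72, -4.56 and -7.47 in Rap1-/- and was well above background on 2 of those arrays, replicates 2 and 3. In WT it read -6.28, -6.21, -6.17 and -5.03 and was well above background on 0 of 4. The second probe (A_55_P2006499) read -6.63, -5.20, -4.61 and -7.60 in Rap1-/-, with replicate 3 alone well above background, against -7.05, -7.13, -6.97 and -6.33 in WT, with 0 of 4. The receptor was therefore called well above background in 2 Rap1-/- samples and in 0 of 4 WT samples, while the lowest readings of both probes were in replicate 4 of Rap1-/-. The WT level is only a bound, set on each array by its dimmest signal that counted as well above background. The mean of all 4 Rap1-/- arrays was below that bound for both probes, so no fold change is given. In a fit that kept all 55668 probes, neither Esrrg probe passed (limma adjusted p = 0.905 and 0.656).

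Esrra followed the skeletal muscle markers of the samples, 16 genes of the contractile and energy apparatus of muscle fibres such as Acta1, Ckm and Myh4. The mean of these markers, each centred on its own mean, was -3.68, 3.22, 2.10 and -4.64 log2 units in Rap1-/-, against 1.82, 0.11, -0.77 and 1.84 in WT. Replicates 2 and 3 of Rap1-/- had the most muscle signal of all 8 arrays, and replicates 1 and 4 the least. Of the 16 markers, 12 were well above background on all 8 arrays, and between 12 and 16 were so on any 1 array. The mean of 10 brown and beige fat markers, centred likewise, was -0.80, 0.93, 0.26 and -0.63 in Rap1-/-. In WT it was -0.03, -0.02, -0.42 and 0.71. Replicates 1 and 4 of Rap1-/- were the lowest arrays there too, and replicate 2 of Rap1-/- the highest. The correlation of Esrra and Esrrg with these brown and beige fat markers was not tested. In bulk tissue, fewer cells of a type and less RNA per cell cannot be told apart.

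Esrra correlated with the muscle mean over the 8 arrays (Pearson r = 0.911, permutation p = 0.00139 over all pairings, adjusted p = 0.0417 over 30 relations; Spearman rho = 0.810, permutation p = 0.0218, adjusted p = 0.567). The relation was r = 0.844 without replicates 1 and 4 of Rap1-/-, the 2 arrays farthest from the median, and r = 0.903 for deviations from the genotype means. For the first Esrrg probe r was 0.823 (permutation p = 0.0122) and rho 0.905 (permutation p = 0.00456). Its r was 0.796 without the same 2 arrays, but 6 of its 8 readings were not well above background, so that their order is uncertain, and replicate 1 of WT had a high muscle mean with a low Esrrg reading. For the second Esrrg probe r was 0.649 (permutation p = 0.0725) and rho 0.762 (permutation p = 0.0368), with r = 0.693 without those arrays. The 2 slides held 4 arrays each, too few for a correlation within a slide.

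**Figure D2:**
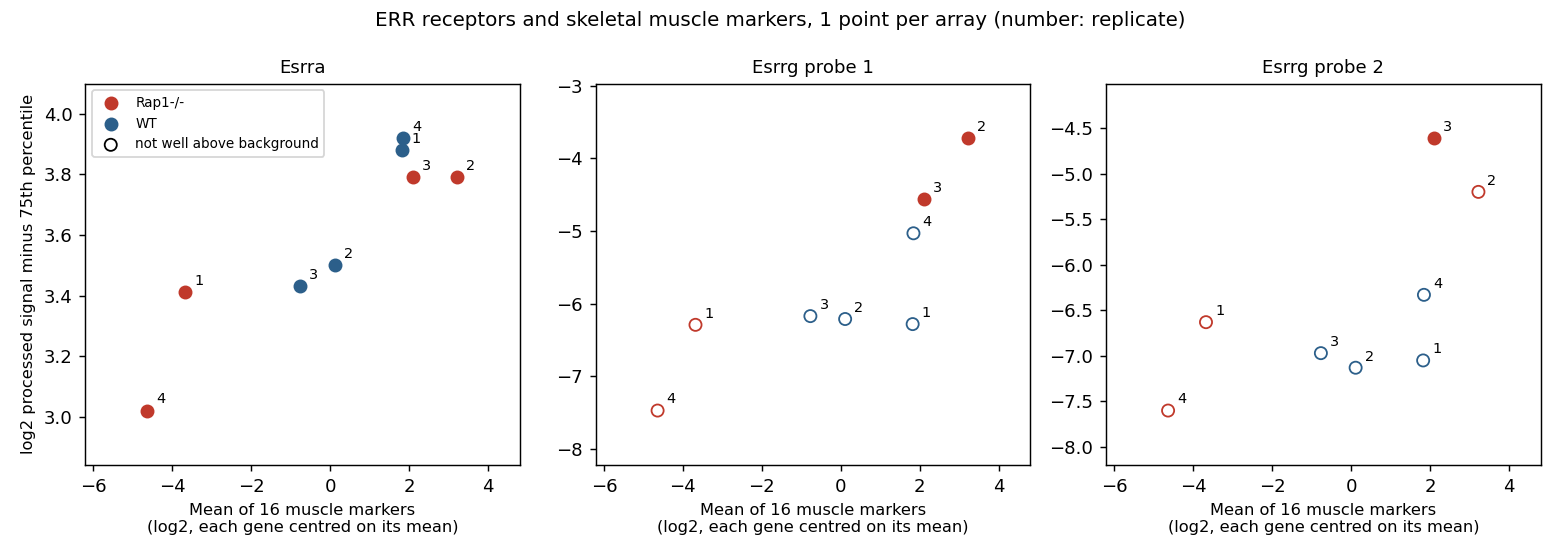
Log2 processed signal minus the 75th percentile of Esrra and of both Esrrg probes (y axis) against the mean of the 16 muscle markers (x axis, log2 units, each gene centred), 1 point per array, Rap1-/- and WT, numbered by replicate; open points were not well above background. Replicates 2 and 3 of Rap1-/- lie at the muscle-rich end and hold every Esrrg reading well above background, and replicate 4 of Rap1-/- is lowest in all 3 panels.

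With the muscle mean as a covariate, the genotype difference of Esrra was -0.03 log2 units, that of the first Ppargc1a probe -0.24 and that of Ppargc1b -0.25, and none of the 15 probes passed. The first Ppargc1a probe had r = 0.595 with the muscle mean (permutation p = 0.120) and r = -0.31 without replicates 1 and 4 of Rap1-/-, so that relation rested on these arrays. Of the 30 relations, between 15 probes and the muscle and respiratory chain means, that of Esrra with muscle was the 1 that passed after adjustment (Pearson r, permutation test). Genotype differences of the muscle markers themselves did not pass for any of the 16. Their median difference was -1.33 log2 units, with Myh4, the fast myosin heavy chain, at -5.60 ± 3.77 (SE, limma adjusted p = 0.897). Myh4 was called well above background in 2 of 4 Rap1-/- samples and 4 of 4 WT samples. That median rested on single arrays: it was -0.15 without replicate 4 of Rap1-/-, -0.27 without replicate 1, -2.68 without replicate 2 and -2.22 without replicate 3 of that genotype, and -0.86 without replicate 1 of WT.

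NRF1 and GABPα are the DNA-binding activators of nuclear genes for mitochondrial proteins, NRF1 as a dimer at its palindromic site and GABPα as the ETS subunit of a complex. Nrf1 was measured by 3 probes. Their means in Rap1-/- were 0.31 ± 0.13, -3.24 ± 0.14 and -3.29 ± 0.07, against 0.32 ± 0.16, -3.20 ± 0.15 and -3.16 ± 0.24 in WT (SD, 4 arrays per genotype), with differences of -0.01 ± 0.11, -0.04 ± 0.11 and -0.14 ± 0.13 log2 units (SE). All 3 differences were within the spread of the arrays (limma adjusted p = 0.912 to 0.995). On the third probe (A_51_P201468) the Rap1-/- arrays read -3.39, -3.26, -3.26 and -3.25, against -2.92, -3.20, -3.03 and -3.47 in WT. All 4 Rap1-/- arrays were below the WT mean there, and replicate 4 of WT was below all of them.

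Gabpa was measured by 2 probes and differed by 0.03 ± 0.10 and 0.05 ± 0.10 log2 units (SE, limma adjusted p = 0.980 and 0.956). The first averaged 0.24 ± 0.13 in Rap1-/- and 0.21 ± 0.12 in WT, and the second averaged -1.15 ± 0.17 in Rap1-/- and -1.20 ± 0.03 in WT (SD, 4 arrays per genotype). For both, the difference was negative within slide 1 (-0.07 and -0.09) and positive within slide 2 (0.13 and 0.20).

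Tfam encodes the high mobility group protein that packages mitochondrial DNA and bends it at its promoters. Its 3 probes read 1.61, 1.65, 1.44 and 1.60, then 0.70, 0.78, 0.68 and 0.91, and then -2.72, -2.27, -2.56 and -2.53 in the 4 Rap1-/- replicates. The same probes read 1.42, 1.62, 1.38 and 1.66, then 0.65, 0.71, 0.60 and 0.75, and then -2.29, -2.69, -3.03 and -2.47 in WT. On each probe, 3 of 4 Rap1-/- arrays were above the WT mean and the groups overlapped. The differences were 0.05 ± 0.10, 0.09 ± 0.09 and 0.10 ± 0.17 log2 units (SE, limma adjusted p = 0.952, 0.915 and 0.950), with 95% intervals whose outer bounds were -0.30 and 0.49.

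The 2 methyltransferase relatives of the mitochondrial transcription system were close between genotypes too. Tfb1m, the enzyme that modifies the small ribosomal RNA of the organelle, averaged 1.13 ± 0.12 in Rap1-/- and 1.14 ± 0.11 in WT (SD, 4 arrays per genotype, difference -0.01 ± 0.10, SE, limma adjusted p = 0.995). Tfb2m, the initiation factor of the mitochondrial RNA polymerase, averaged 1.90 ± 0.07 in Rap1-/- and 1.98 ± 0.10 in WT (difference -0.08 ± 0.09, SE, limma adjusted p = 0.921). Tfb2m read 1.92, 1.99, 1.82 and 1.87 in Rap1-/-, against 2.10, 1.97, 1.87 and 1.96 in WT, a range of 0.17 log2 units in Rap1-/- and 0.23 in WT. In the values deposited by the authors, its genotypes no longer overlapped, at an adjusted p that still did not pass. The genotypes were apart on 802 of all 33983 probes in those values, and on 1 of the 15 probes of the biogenesis factors.

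**Figure D3:**
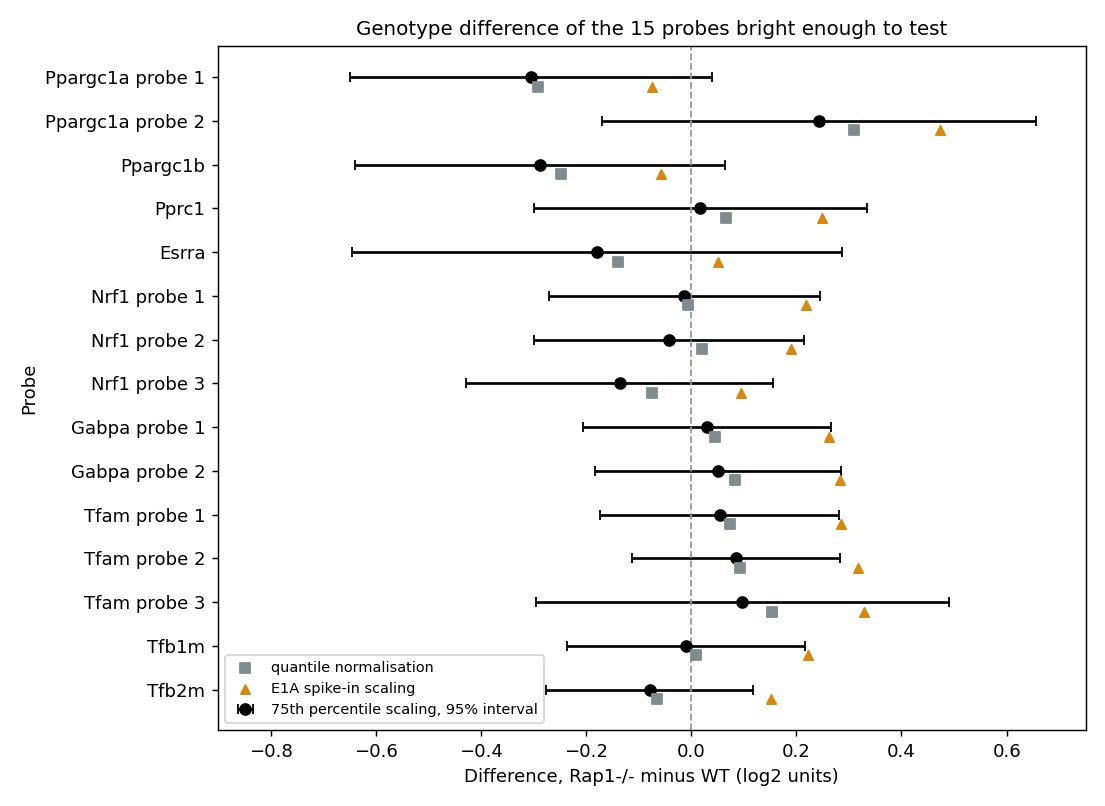
Difference of Rap1-/- minus WT in log2 units (x axis) for the 15 tested probes (y axis), as points with 95% intervals, and the same difference after quantile normalisation (squares) and E1A spike-in scaling (triangles). Every interval spans 0, and spike-in scaling moves all 15 differences to the right, with 13 of them above 0.

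NRF1 and GABPα are known to act on promoters of other factors of this group, so promoter windows with a matching site before the annotated start are shown. Of the 10 genes, 9 had RefSeq promoter windows, 13 windows in all, and no window was searched for Ppargc1b. The GABP site was present in 2 of the 9 genes, Gabpa itself and Tfam, and the NRF1 site in 2, Esrra and Tfb2m. The ERR half-site and the telomere repeat were found in 0 of the 9. The windows below (GRCm38.p6, 5′ to 3′ in the direction of the gene) hold 25 bases on each side of the site, which is in capitals.
Tfam, chr10:71238060-71238116, minus strand: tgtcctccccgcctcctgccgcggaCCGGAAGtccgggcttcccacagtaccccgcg
Gabpa, chr16:84835006-84835062, plus strand: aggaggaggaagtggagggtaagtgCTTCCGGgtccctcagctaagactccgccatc
Esrra, chr19:6921916-6921974, minus strand: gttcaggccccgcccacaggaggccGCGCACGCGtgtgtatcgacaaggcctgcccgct
The site of Tfam starts 47 bases before the annotated start, that of Gabpa 93 bases before it, on the opposite strand, and that of Esrra 141 bases before it. The site of Tfb2m lies after the annotated start, at base 12, and its window is not printed. No motif overlapped another. The letters are a match and not a measured binding site, and none of these 4 genes passed between genotypes.

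Around the biogenesis factors, 6 lists of other genes of the pathway were read from the same fit, and no gene of any list passed after adjustment. The counts of higher and lower means below depend on the scaling, and the median of all probes was itself 0.03 with median scaling and 0.19 with E1A scaling. Among 44 regulators and partners of the PGC1 coactivators, 12 were higher and 32 lower in Rap1-/-, with a median of -0.03 log2 units, beside -0.04 over all probes. With median scaling 26 were higher and 18 lower, and with E1A scaling 41 were higher and 3 lower. At an unadjusted p under 0.05 were 2 of the 44, near the share of 4.83% over all probes (limma). They were Ncoa1, a histone acetyltransferase coactivator, at -0.19 ± 0.08 and Pparg, the adipocyte master receptor, at -0.28 ± 0.11 (SE, limma adjusted p = 0.897 for both). Nrip1, the corepressor RIP140 that opposes PGC1α in fat, was at 0.21 ± 0.10, and Crebbp, an acetyltransferase, at -0.21 ± 0.12. Their unadjusted p-values were 0.0745 and 0.121 (limma).

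The machinery that works with TFAM inside the organelle was centred near the median of all probes. Of 39 genes for replication, transcription and packaging of mitochondrial DNA, 16 were higher and 23 lower in Rap1-/-, with a median of -0.03 log2 units, and 0 had an unadjusted p under 0.05 (limma). With median scaling 24 were higher and 15 lower, and with E1A scaling all 39 were higher. Leaving out replicate 1 of WT brought the median to 0.01, and leaving out replicate 4 of Rap1-/- brought it to -0.07. Those with the smallest p were Slirp, a partner of mitochondrial mRNA, at -0.15 ± 0.10, Atad3a of the nucleoid at -0.19 ± 0.13, Mterf1a, a termination factor, at -0.16 ± 0.11, and Hsd17b10, a subunit of mitochondrial RNase P, at -0.19 ± 0.14 (SE, limma adjusted p = 0.897 each).

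The respiratory chain genes, known targets of the coactivators, more often had the lower mean in Rap1-/-. Of the 77 nuclear genes for respiratory chain and ATP synthase subunits, 76 had the lower mean in Rap1-/- and 1 the higher, with a median of -0.19 log2 units, while 59.6% of all probes were lower. At an unadjusted p under 0.05 were 7 of the 77, all lower, beside 4.83% of all probes in both directions (limma). Among them were Uqcrh of complex III at -0.29 ± 0.10, Ndufs7 of complex I at -0.26 ± 0.09, and Atp5g2 and Atp5h of ATP synthase at -0.27 ± 0.10 and -0.24 ± 0.09 (SE, limma adjusted p = 0.897 each). The mean over the 77 genes, each centred, was -0.22, 0.01, -0.14 and -0.02 in Rap1-/-, against 0.26, -0.10, 0.07 and 0.13 in WT, so that the arrays of the genotypes overlapped. The count at an unadjusted p under 0.05 was unstable: it was 30 without replicate 2 of WT, 13 without replicate 2 of Rap1-/-, 1 without replicate 1 of either genotype, between 2 and 6 without any other 1 array, 0 with the replicate number as a block and 18 with a trended robust variance (limma). The direction changed with the scaling. With quantile normalisation 67 of the 77 were lower and the median was -0.10, and with spike-in scaling 17 were lower, 60 were higher and the median was 0.05, while the median of all probes moved to 0.19.

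White adipocyte markers were also mostly lower in Rap1-/- under the 75th percentile scaling. Of 11 such markers, 10 were lower in Rap1-/- and 1 higher (median -0.27 log2 units), and their centred mean lay between -0.16 and 0.02 in Rap1-/- and between 0.03 and 0.16 in WT. The median was -0.03 with quantile normalisation (8 lower, 3 higher) and -0.04 with E1A scaling (6 lower, 5 higher), and within slide 2 it was -0.15. Mesothelium markers were higher in Rap1-/- for 10 of 10, with a median of 0.63 log2 units, and their centred mean lay between 0.12 and 0.42 in Rap1-/- and between -1.04 and 0.26 in WT. Replicate 3 of WT was the lowest array, without which the median was 0.38. The median was 0.78 without replicate 2 of WT, 0.21 within slide 1 and 1.05 within slide 2. At an unadjusted p under 0.05 were 6 of the 11 white adipocyte markers, all lower, and 4 of the 10 mesothelium markers, all higher, beside 4.83% of all probes (limma). The genotypes were apart on 2 markers of each list, beside 3.16% of all probes. With quantile normalisation the counts under 0.05 were 0 and 6 (limma). No marker of either list passed after adjustment (limma), and the part of these cell types in the values of the respiratory chain was not tested.

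Protein import and chaperones, the machinery that brings nuclear-encoded proteins into the organelle, had 36 genes lower and 4 higher of 40 (median -0.07 log2 units). With median scaling 20 were lower and 20 higher, and with E1A scaling 6 were lower and 34 higher (median 0.16). With 1 array left out the median ran between -0.12, without replicate 3 of WT, and -0.02, without replicate 1 of WT. At an unadjusted p under 0.05 were 4 of the 40, beside 4.83% of all probes (limma). They were Grpel2, a nucleotide exchange factor, at -0.35 ± 0.11, the chaperonin pair Hspe1 and Hspd1 at -0.25 ± 0.09 and -0.28 ± 0.10, and Tomm6 of the outer membrane translocase at -0.30 ± 0.12 (SE, limma adjusted p = 0.897 each). Of 21 genes of fusion, fission and mitophagy, 15 were lower and 6 higher (median -0.08), with 0 at an unadjusted p under 0.05 (limma). With median scaling 11 were lower and 10 higher, and with E1A scaling 1 was lower and 20 higher. The values for the fusion gene Mfn2, a known PGC1α target, were 3.67 in Rap1-/- and 3.81 in WT (difference -0.13 ± 0.10, SE). Fundc1, a mitophagy receptor, was at 0.12 ± 0.08, Mtfp1, a fission protein, at -0.40 ± 0.29, and Mief1, a receptor for the fission GTPase, at 0.10 ± 0.08 (SE, limma adjusted p = 0.897 to 0.903).

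Genes known to be induced by PGC1α or ERRα in muscle or fat were lower for 24 of 31 and higher for 7, with a median of -0.18 log2 units. With E1A scaling 12 were lower and 19 higher (median 0.05). The median was -0.08 in the values deposited by the authors, -0.08 without replicate 1 of Rap1-/-, -0.12 without replicate 1 of WT and -0.10 without replicate 4 of WT. It lay further from 0 without replicate 2 of Rap1-/- (-0.21), replicate 2 of WT (-0.22) or replicate 3 of WT (-0.22). At an unadjusted p under 0.05 was 1 of the 31, beside 4.83% of all probes (limma). It was Pdk4, the kinase that shuts pyruvate dehydrogenase, which averaged 2.58 in Rap1-/- and 1.95 in WT, a difference of 0.63 ± 0.27 (SE, limma adjusted p = 0.897). Acadvl and Hadhb, enzymes of fatty acid β-oxidation in the same list, lay on the other side of 0, at -0.26 ± 0.12 and -0.22 ± 0.11 (SE, limma adjusted p = 0.897 each). With the muscle mean as a covariate the median of this list was -0.08 log2 units, and 23 of 31 were lower.

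**Figure D4:**
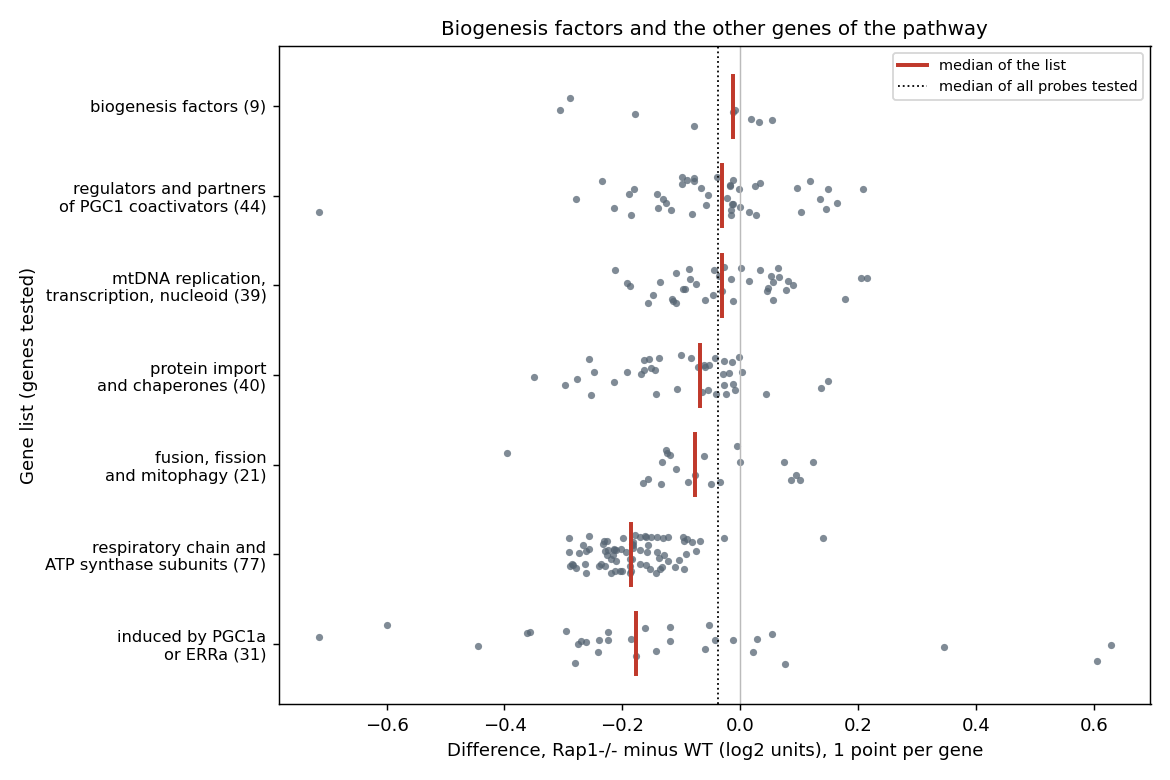
Difference of Rap1-/- minus WT in log2 units (x axis) of each gene, 1 point per gene, for the 9 tested biogenesis factors and 6 lists of other pathway genes (y axis, number tested in brackets), with the list medians (bars) and the median of all 33983 probes (dotted line). The biogenesis factors are centred near the dotted line, at -0.01, and the respiratory chain subunits at -0.19, with 1 of 77 above 0; these positions hold for the 75th percentile scaling.

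The respiratory chain mean was also set against each biogenesis factor over the arrays. The largest r was that of the first Ppargc1a probe (Pearson r = 0.769, permutation p = 0.0272, adjusted p = 0.408 over 30 relations; Spearman rho = 0.690, permutation p = 0.0694, adjusted p = 0.567). Without replicate 1 of Rap1-/- and replicate 1 of WT, the arrays farthest from the median, r was 0.352, so the relation rested on these arrays. The r of Ppargc1b was 0.620 (permutation p = 0.0959) and that of Esrra 0.424 (permutation p = 0.296), and neither passed after adjustment.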

How the data were processed

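The authors hybridised Cy3-labelled RNA, with RNA integrity numbers of 6.5 to 8.5, to 1-colour Agilent arrays. Per the file headers, Feature Extraction 10.7.3.1 (the study's methods give another version) read the spots of a design made from mm9. The scanner files deposited hold linear intensity per spot, not normalised between arrays, and the deposited value table holds log2 values, for which the submitters' notes name limma. Groups came from the labels. The log2 processed signal minus each array's 75th percentile was averaged over spots of a probe, and control spots and outlier flags were left out. Probes were named through RefSeq accessions in a GRCm38.p6 table (26050 of 55681, 46.8%), and 13 were dropped for want of a value on an array. The 33983 probes called well above background on 4 or more of 8 arrays went into limma 3.58.1 (R 4.3.3), using lmFit and eBayes and a Benjamini-Hochberg threshold of 0.05 across them all. In lists, the kept probe with the highest mean stood for a gene, and genes were named by the smallest p, up to 4 per list; 1 gene that this rule selects is not reported here. For the coactivators, the 5 symbols with the highest r were named. The members and lists were chosen with earlier results of these data known. Permutation tests were two-sided and exact, and 4 against 4 arrays cannot go below p = 0.0286. The scripts were tested on simulated data. Each slide held 2 arrays of each genotype, but WT arrays sat at positions 1 and 2 and Rap1-/- arrays at 3 and 4, so position and genotype cannot be told apart. Same-numbered samples deviated from their group means with correlations of -0.21, -0.12, -0.10 and -0.15, so the numbers do not pair them. Alternatives covered scaling, normexp background correction (offset 50, on the median signal, as the files used here hold no mean signal), the deposited table, filters on dim probes, slide and replicate blocks, a muscle covariate, the variance model, each slide alone, and leaving out each array. Plots used Python 3.11.15 with matplotlib 3.10.9.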

Additional observations from a re-analysis of the deposited data

Results flagged for a closer look

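Over the 17 probes, both genotypes were examined for an array that stood apart from the other 3 of its group, 34 groups in all, and chance alone marks about 1 group in 20. In WT, the first Esrrg probe read -5.03 in replicate 4 and between -6.28 and -6.17 in the others, none of them well above background. Replicate 4 of WT had a muscle marker mean of 1.84, the highest of the WT arrays. Replicate 1 of WT, at 1.82, did not share the Esrrg reading. In Rap1-/-, the third Nrf1 probe read -3.39 in replicate 1 and between -3.26 and -3.25 in the others, a gap of little size next to the WT range of 0.56 log2 units.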

How the results depend on the processing

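Under all 23 alternatives, 0 probes of the biogenesis factors passed (limma). At an unadjusted p under 0.05 the count was 0 in 20 of them and 1 under E1A scaling (the second Ppargc1a probe), without replicate 3 of Rap1-/- and without replicate 2 of WT (the first Ppargc1a probe in both). Over all probes, the 2 calls became 3 with normexp and quantile normalisation, with normexp and the 75th percentile, in the deposited values and with trended robust variance, 1 when probes had to be well above background on all 8 arrays, 1 within slide 1 and 0 within slide 2, and stayed at 2 without any 1 array. The 1 called probe pair became 0 with the filter on all 8 arrays and 2 with the muscle covariate. With the replicate block, 2 probes were called and 1744 had an unadjusted p under 0.05, beside 1641 without it, and 0 of the 15 probes of the biogenesis factors passed (limma); the numbers do not pair the samples.

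Small differences changed sign in 38 of 345 comparisons of a probe with its alternatives, none of them a called value. Under E1A scaling, the difference was 0.052 for Esrra, 0.22, 0.19 and 0.10 for the 3 Nrf1 probes, 0.22 for Tfb1m and 0.15 for Tfb2m. Under median scaling it was 0.058 and 0.030 for the first and second Nrf1 probes and 0.062 for Tfb1m, and under quantile normalisation 0.021 for the second Nrf1 probe and 0.0084 for Tfb1m. With normexp and the 75th percentile it was -0.091 for the second Ppargc1a probe, -0.044 for Pprc1, 0.0030 for the first Nrf1 probe and -0.054 for the third Tfam probe. With the muscle covariate it was -0.0086 for Pprc1. Within slide 1 it was -0.030 for Pprc1, -0.067 and -0.095 for the Gabpa probes and -0.0074 for the third Tfam probe, and within slide 2 it was 0.034 for the first Nrf1 probe, -0.00051 for the first Tfam probe and 0.12 for Tfb1m. Leaving out 1 array gave -0.091 to 0.11 for Pprc1, -0.067 to 0.051 and -0.11 to 0.016 for the first and second Nrf1 probes, -0.022 to 0.080 and -0.012 to 0.12 for the Gabpa probes, -0.039 to 0.21 for the third Tfam probe and -0.071 to 0.028 for Tfb1m. Median and E1A scaling shift every probe of an array by the same amount, so under each of them all differences moved together. For the other alternatives the cause was not tested.

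The r with the respiratory chain mean turned positive under E1A scaling for the second Ppargc1a probe (0.428), the first and second Nrf1 probes (0.379 and 0.374), both Gabpa probes (0.598 and 0.555), the first and second Tfam probes (0.718 and 0.734) and both Esrrg probes (0.277 and 0.162), and under quantile normalisation for the second Tfam probe (0.0288). E1A scaling adds the same shift to every probe of an array. With 4 arrays a genotype the intervals reach 0.20 to 0.47 log2 units to each side, depending on the probe. Differences smaller than the reach of a probe's interval could not be told from 0 here. The intervals are not adjusted for the number of probes tested, and Esrrg and the second Ppargc1a probe are near the background of the arrays.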
